A study of Homo sapiens with 41 samples.

Results

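The 10 genes described here are regulators and markers of the epithelial-mesenchymal transition (EMT), taken from the 19974 protein-coding genes of chromosomes 1 to 22 and X. They are the transcription factor genes ZEB1, ZEB2, SNAI1, SNAI2, TWIST1 and TWIST2, the mesenchymal marker genes VIM, FN1 and CDH2, and the epithelial marker gene CDH1. Each was taken at its RefSeq position in GRCh38 with 10 kb added on each side of the gene body, and all peaks in these windows, 1.05 Mb in total, were collected from 32 deposited peak lists. The gene start was treated separately, as 1 kb on each side of the outermost annotated start.

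The lists come from the cell line MDA-MB-231, human breast cancer cells labelled as triple-negative, which are often used as a model of a cell with mesenchymal traits. Cells treated with Nexturastat A (NextA), an inhibitor of the deacetylase HDAC6, at 5 µM for 2 days were set against control cells, and cells carrying an shRNA to HDAC6 (shHDAC6) against cells with a control shRNA (shCtrl). HDAC6 itself was mapped by ChIP in 2 NextA, 2 shHDAC6 and 2 control samples and by CUT&Tag, in which an antibody tethers the tagging enzyme, in 2 control samples. Histone H3 acetylation (a pan-acetyl antibody) was mapped in 2 NextA and 2 control samples. RNA polymerase II (PolII, antibody to the Rpb1 tail) was mapped in 2 samples each of NextA, control, shHDAC6 and shCtrl cells, and accessible chromatin by ATAC-seq in 3 samples of each. Each library was made from 100000 cells. In HDAC6 ChIP, replicate 1 used a CST antibody and replicate 2 a Novus antibody in both NextA and control cells, and both shHDAC6 samples used Novus. The labels give neither the shRNA sequence nor whether the hairpin cells are a clone or a pool, and no vehicle is named for the control cells.

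List length sets what a missing peak can mean. HDAC6 ChIP lists held 235 to 63833 peaks, the lowest number in the Novus NextA list, and pan-acetyl lists held 1418 to 61186, the lowest in control replicate 1. CUT&Tag lists held 14458 and 22481 peaks, PolII lists 19519 to 31198 and ATAC lists 25878 to 79666. The depth behind a peak is unknown, so a missing peak means that none was called. The strength of a peak is given by ranking the authors' fold among all peaks of the same list, as a percentile where 100 is the strongest peak. The fold is the authors' value, and because lists differ in length, a difference in percentile between lists is no measure of change in binding. The peak names of the Novus NextA list carry a prefix otherwise found in shCtrl lists and those of CUT&Tag replicate 2 a hairpin prefix, and both are used here as labelled. Peak lists do not measure the HDAC6 transcript, so the knockdown itself was not checked.

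In EMT, epithelial cells give up cell-cell junctions and take up a motile form. ZEB and SNAIL proteins are zinc finger repressors that bind E-boxes with the core CAGGTG, and CDH1, which encodes the junction protein E-cadherin, is their best known target. TWIST proteins are basic helix-loop-helix factors. Vimentin (VIM) is an intermediate filament protein, fibronectin (FN1) an extracellular matrix protein, and N-cadherin (CDH2) the cadherin that often replaces E-cadherin. MicroRNAs of the miR-200 family target ZEB1 and ZEB2 transcripts.

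The RefSeq promoter table of GRCh38.p14 held start sequences, 250 bases before to 50 after a start, for 6 of the 10 genes: ZEB1, ZEB2, TWIST2, VIM, FN1 and CDH2. SNAI1, SNAI2, TWIST1 and CDH1 were not among them. The sequences of 4 starts that recur in the results follow, in lower case on the strand of the gene, with the E-box CAGGTG or its reverse complement CACCTG in capitals. VIM (chr10:17227991-17228290, plus strand) is shown because it was marked in the most lists. TWIST2 (chr2:238847835-238848134, plus strand) is shown because PolII and ATAC differed there. CDH2 (chr18:28177081-28177380, minus strand) is the member start with an HDAC6 peak within 1 kb in every control list. HDAC6 peaks overlapped the printed CDH2 sequence itself in only 1 CUT&Tag list and 1 ChIP list. The ZEB1 start at chr10:31318966-31319265 (plus strand), 0.799 kb after the outermost one, holds 3 E-boxes.
VIM: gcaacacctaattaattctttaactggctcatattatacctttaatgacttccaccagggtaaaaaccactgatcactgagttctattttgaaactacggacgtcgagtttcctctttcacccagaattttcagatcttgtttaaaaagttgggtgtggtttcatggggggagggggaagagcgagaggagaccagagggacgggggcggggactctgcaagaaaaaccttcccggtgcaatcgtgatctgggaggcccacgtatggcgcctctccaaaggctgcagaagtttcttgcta
TWIST2: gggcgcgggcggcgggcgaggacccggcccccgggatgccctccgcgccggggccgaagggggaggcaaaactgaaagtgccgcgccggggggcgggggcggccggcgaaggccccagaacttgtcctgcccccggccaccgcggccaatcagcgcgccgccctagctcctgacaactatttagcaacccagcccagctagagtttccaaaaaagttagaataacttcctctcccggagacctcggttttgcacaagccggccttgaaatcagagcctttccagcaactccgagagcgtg
CDH2: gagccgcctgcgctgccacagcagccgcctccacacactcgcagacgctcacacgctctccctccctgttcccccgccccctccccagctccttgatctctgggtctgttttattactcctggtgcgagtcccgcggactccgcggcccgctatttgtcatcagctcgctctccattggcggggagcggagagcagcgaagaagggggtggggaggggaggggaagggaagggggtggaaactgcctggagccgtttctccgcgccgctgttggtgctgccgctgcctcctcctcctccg
ZEB1: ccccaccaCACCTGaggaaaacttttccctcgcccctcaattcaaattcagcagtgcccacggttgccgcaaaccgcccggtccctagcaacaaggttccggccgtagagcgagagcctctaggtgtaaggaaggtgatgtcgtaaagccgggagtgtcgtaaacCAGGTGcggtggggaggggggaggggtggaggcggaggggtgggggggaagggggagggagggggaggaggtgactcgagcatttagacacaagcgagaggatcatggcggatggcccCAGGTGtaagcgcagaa

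The E-box was searched on both strands as CAGGTG or CACCTG in all 35116 promoters of that table. It was present in 20.6% of them, at least 2 copies in 3.49%, and at least 3 copies in 0.635%. The outermost ZEB1 start held 1 copy and the one printed held 3, the most of any ZEB1 start in the table. All other ZEB1 starts in the table held 0. The start sequences of ZEB2, TWIST2, VIM, FN1 and CDH2 held 0. PolII peaks overlapped the printed ZEB1 sequence in 8 of 8 lists and ATAC peaks in 7 of 12. Base composition also varied among the members: GC content was 48.0% at VIM, 49.0% at ZEB2, 66.7% at TWIST2, 67.0% at CDH2 and 76.7% at FN1, against a median of 58.7% over the table. The FN1 start held 6 GC boxes (GGGCGG or CCGCCC, both strands), TWIST2 held 4, VIM and CDH2 held 1 each and ZEB2 held 0, and 45.0% of all promoters held at least 1.

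Across the 32 lists the mesenchymal starts were marked by PolII far more often than the CDH1 start. A PolII peak lay within 1 kb of the start in all 8 lists for ZEB1, SNAI1, SNAI2, VIM and FN1, in 6 of 8 for TWIST1, TWIST2 and CDH2, in 5 of 8 for ZEB2 and in 2 of 8 for CDH1. Of all 15852 genes with a known strand, 54.1% had PolII at the start in all 8 lists, so 5 of 10 members is close to the share among all genes. ATAC peaks stood at the start in all 12 lists for VIM and SNAI2, in 11 for FN1, 10 for CDH2, 9 each for ZEB1 and ZEB2, 6 for TWIST1, 3 each for SNAI1 and TWIST2 and 0 for CDH1. Among all genes 43.5% had an ATAC peak at the start in all 12 lists and 26.7% in 0 lists. Noncoding RNA genes also start near some member starts: LOC100287387 0.178 kb from TWIST2, FN1-DT 0.377 kb from FN1, ZEB2-AS1 0.505 kb from ZEB2, VIM-AS1 1.74 kb from VIM and ZEB1-AS1 2.03 kb from ZEB1. Peaks there were not assigned between the genes.

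**Figure D1:**
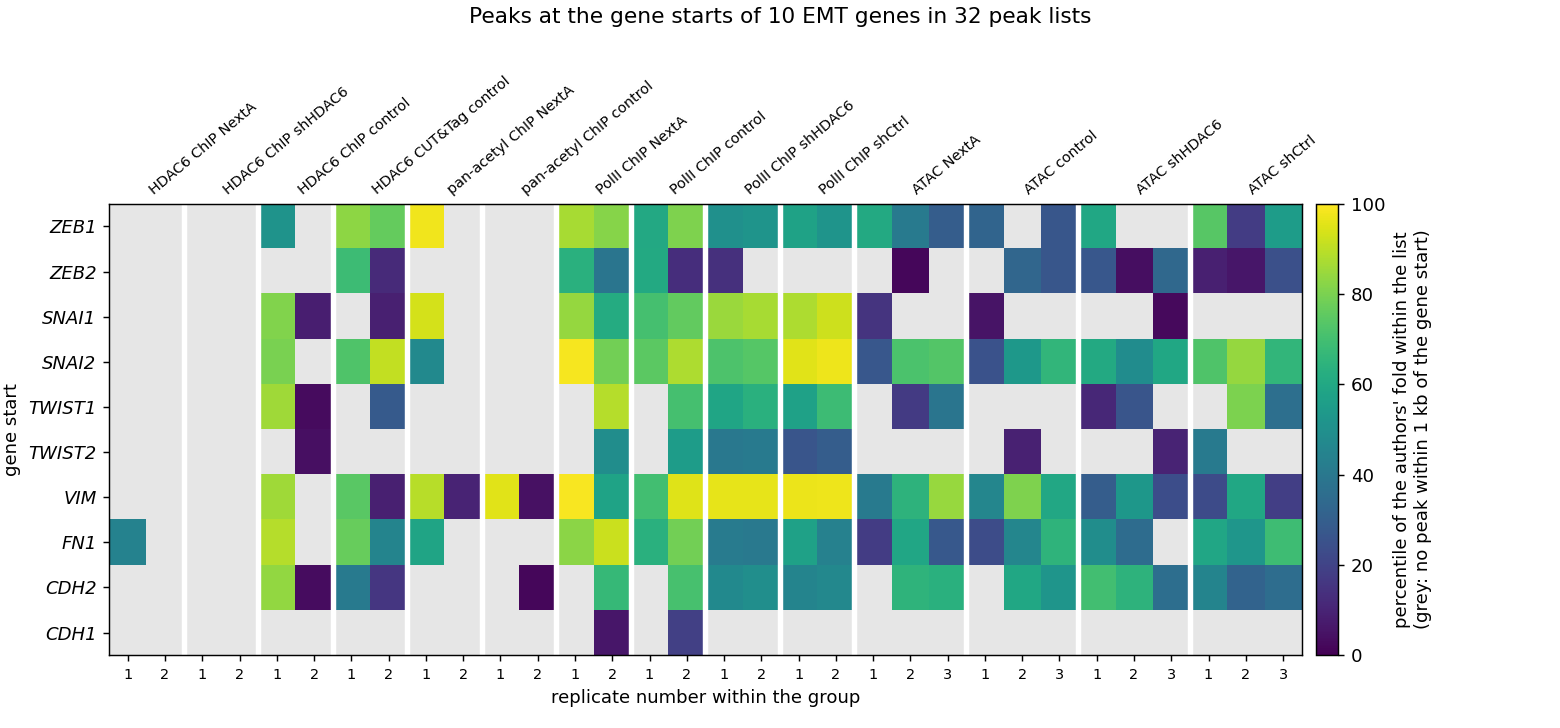
Peaks within 1 kb of the start of the 10 genes (rows) in 32 peak lists (columns, grouped by assay and cells and numbered by replicate). Colour gives the percentile of the authors' fold within the list from 0 to 100, and grey means that no peak was called. The PolII block is filled for ZEB1, SNAI1, SNAI2, VIM and FN1, the CDH1 row has colour in 2 PolII lists only, and the NextA and shHDAC6 columns of HDAC6 ChIP hold 1 coloured cell.

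ZEB1 (chromosome 10, 31318417 to 31529804) carried PolII at its start at percentile 86.9 and 81.9 in NextA lists, against 60.4 and 80.7 in control lists. In the hairpin cells the percentiles were 50.4 and 51.8 in shHDAC6 lists, against 57.6 and 51.8 in shCtrl lists. ATAC peaks at the ZEB1 start were called in 3 of 3 NextA lists, against 2 of 3 control lists, and in 1 of 3 shHDAC6 lists, against 3 of 3 shCtrl lists. In neither comparison did the ZEB1 start meet the rule of a peak in every list of one group and no list of the other. HDAC6 CUT&Tag marked the start in both lists (percentiles 83.0 and 76.3), and HDAC6 ChIP only in the CST control list (51.3).

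ZEB2 (chromosome 2, 144384081 to 144520119) had PolII less regularly at its own start than at regions beside it. PolII at the start had percentiles of 63.4 and 38.8 in NextA lists, against 60.8 and 13.1 in control lists, and was called in 1 of 4 hairpin lists, shHDAC6 replicate 1 (13.9). A region centred 2.99 kb into the gene held PolII in 8 of 8 lists (median percentile 60.5), and one centred 3.68 kb upstream held PolII in 6 of 8 (50.1). The start of the noncoding RNA gene LINC01412 lies 1.75 kb from the ZEB2 start, and that of ZEB2-AS1 lies 0.505 kb from it. The upstream PolII region also spans the noncoding RNA gene LINC02993. Further ATAC regions inside ZEB2, 58.6 kb and 92.8 kb from the start, were called in 9 and 8 of 12 lists.

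SNAI1 (chromosome 20, 49982980 to 49988886) had strong PolII and few ATAC peaks at its start. Its PolII percentiles were 84.4 and 61.3 in NextA lists, against 70.6 and 76.0 in control lists, and 85.0 and 87.0 in shHDAC6 lists, against 87.6 and 92.5 in shCtrl lists. ATAC peaks were called in NextA replicate 1 (15.1), control replicate 1 (5.39) and shHDAC6 replicate 3 (2.401), and in 0 of 3 shCtrl lists. A small region 3.62 kb upstream of SNAI1 held ATAC in 7 lists and PolII in 5.

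SNAI2 (chromosome 8, 48917598 to 48921429), which encodes the SNAIL relative SLUG, was marked by both PolII and ATAC in every list of those assays. Its ATAC percentiles ran from 25.3 to 84.3 with a median of 63.2. Its PolII percentiles ran from 71.9 to 98.5, and both extremes fell in the perturbed cells, shHDAC6 replicate 1 and NextA replicate 1. HDAC6 CUT&Tag peaks at SNAI2 stood at 72.5 and 90.7.

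TWIST1 (chromosome 7, 19113047 to 19117636) had PolII in replicate 2 of NextA (88.9) and of control (70.4) and in replicate 1 of neither. In the hairpin cells the percentiles were 59.0 and 63.5 in shHDAC6 lists, against 57.3 and 68.7 in shCtrl lists. ATAC peaks at TWIST1 were scattered, in 2 of 3 NextA lists, against 0 of 3 control lists, and in 2 of 3 shHDAC6 lists, against 2 of 3 shCtrl lists.

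TWIST2 (chromosome 2, 238848085 to 238910534) had its steady accessible region inside the gene rather than at its start. PolII at the start had percentiles of 26.4 to 55.1 in the 6 lists that held it, and ATAC peaks near the start were called in 3 of 12 lists. A region at chr2:238863777-238865923, 16.8 kb into TWIST2, held ATAC in all 12 lists (percentiles 58.6 to 95.1, median 76.5), PolII in all 8 (7.18 to 65.7) and HDAC6 CUT&Tag in both (20.2 and 68.8). It was the only region inside a member gene, away from the gene start, that was called in every ATAC and every PolII list.

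VIM (chromosome 10, 17228241 to 17237593) was marked most often of all members. A peak lay within 1 kb of its start in 27 of 32 lists. The region merged over all lists, chr10:17226906-17240205, spans the whole gene and was called in 29 of 32 lists. It also takes in HDAC6 ChIP peaks 1.02 kb from the start in shHDAC6 replicate 1 and 1.14 kb in the Novus control list. VIM was the only member with pan-acetyl peaks within 1 kb of the start in all 4 lists, which 2.3% of all genes had. The control peaks lay 0.591 and 0.505 kb from the start. Within 500 bp VIM therefore had a pan-acetyl peak in both NextA lists and in neither control list. Its median PolII percentile over 8 lists was 96.4, a level above that of 98.5% of all genes when genes without a peak count as 0. The VIM PolII peak was also wide. It spanned 13.2 and 11.4 kb in NextA lists, against 11.005 and 3.08 kb in control lists, and 2.74 and 2.74 kb in shHDAC6 lists, against 2.95 and 3.15 kb in shCtrl lists. The 3 widest peaks ran over the whole gene, and the VIM peak was wider than 91.6% to 99.8% of the peaks of its list. Outside those 3 lists, the CDH2 start peak was wider than the VIM peak, at 3.25 to 3.44 kb.

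A second VIM region separated the parental cells from the hairpin cells. An ATAC peak past the end of the gene, at chr10:17237867-17239532 and 10.5 kb from the start, was called in 3 of 3 NextA, 3 of 3 control, 0 of 3 shHDAC6 and 0 of 3 shCtrl lists. Its percentiles were 59.9, 18.2 and 1.607 in NextA lists, against 53.8, 31.0 and 1.04 in control lists. Of all 139237 ATAC regions, 3.62% were in every NextA and control list and in no hairpin list, and 0.0575% showed the opposite pattern, so the VIM region is 1 of many. No PolII region in the member windows had either pattern, against 0.738% and 0.109% of all PolII regions. ATAC lists of NextA and control cells held 42113 to 79666 peaks and those of hairpin cells 25878 to 32998, and list length and cell line cannot be told apart here. The ATAC peak at the VIM start in turn reached 1.08 to 1.46 kb past the start in NextA and control lists and 2.32 to 2.53 kb in 5 of 6 hairpin lists.

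FN1 (chromosome 2, 215360865 to 215436068) had PolII at percentiles 82.6 and 92.0 in NextA lists, against 63.6 and 78.9 in control lists, and 41.6 and 40.4 in shHDAC6 lists, against 57.2 and 44.1 in shCtrl lists. It was the only member with an HDAC6 ChIP peak at its start in NextA cells (CST list, percentile 44.2, against 89.1 in the CST control list). ATAC was called in all 12 lists but shHDAC6 replicate 3.

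CDH2 (chromosome 18, 27932879 to 28177130) had PolII in replicate 2 of NextA (67.1) and control (70.9) and in replicate 1 of neither, and in all hairpin lists (47.4 and 49.4 in shHDAC6, against 45.3 and 46.8 in shCtrl). ATAC followed a like pattern: it was absent in replicate 1 of NextA and of control and present in the other 10 lists, at 31.999 to 69.5. CDH2 was the only member with an HDAC6 peak at its start in both ChIP and both CUT&Tag control lists, which 8.38% of all genes had. Its peak in the Novus ChIP list stood at percentile 3.28 only.

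CDH1 (chromosome 16, 68737292 to 68835537) had no ATAC, HDAC6 or pan-acetyl peak within 1 kb of its start in any list, and no ATAC peak nearer than 2.94 kb. PolII was called there in replicate 2 of NextA (5.87) and of control (19.1) only. Its window nevertheless held strong peaks that lie at or near other genes. A region at chr16:68842358-68844578, 106 kb from the CDH1 start, covers the start of TANGO6 and was called in 27 of 32 lists, with ATAC in all 12 and PolII in all 8 (median percentile 91.9). A region at chr16:68731801-68732888, 4.95 kb upstream of the CDH1 start, lies inside the 3′ part of the neighbouring cadherin gene CDH3. It held ATAC in 11 of 12 lists at 51.2 to 83.4, all but NextA replicate 2. Another region, 63.2 kb into CDH1, held ATAC in 8 lists and no other mark in any list.

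**Figure D2:**
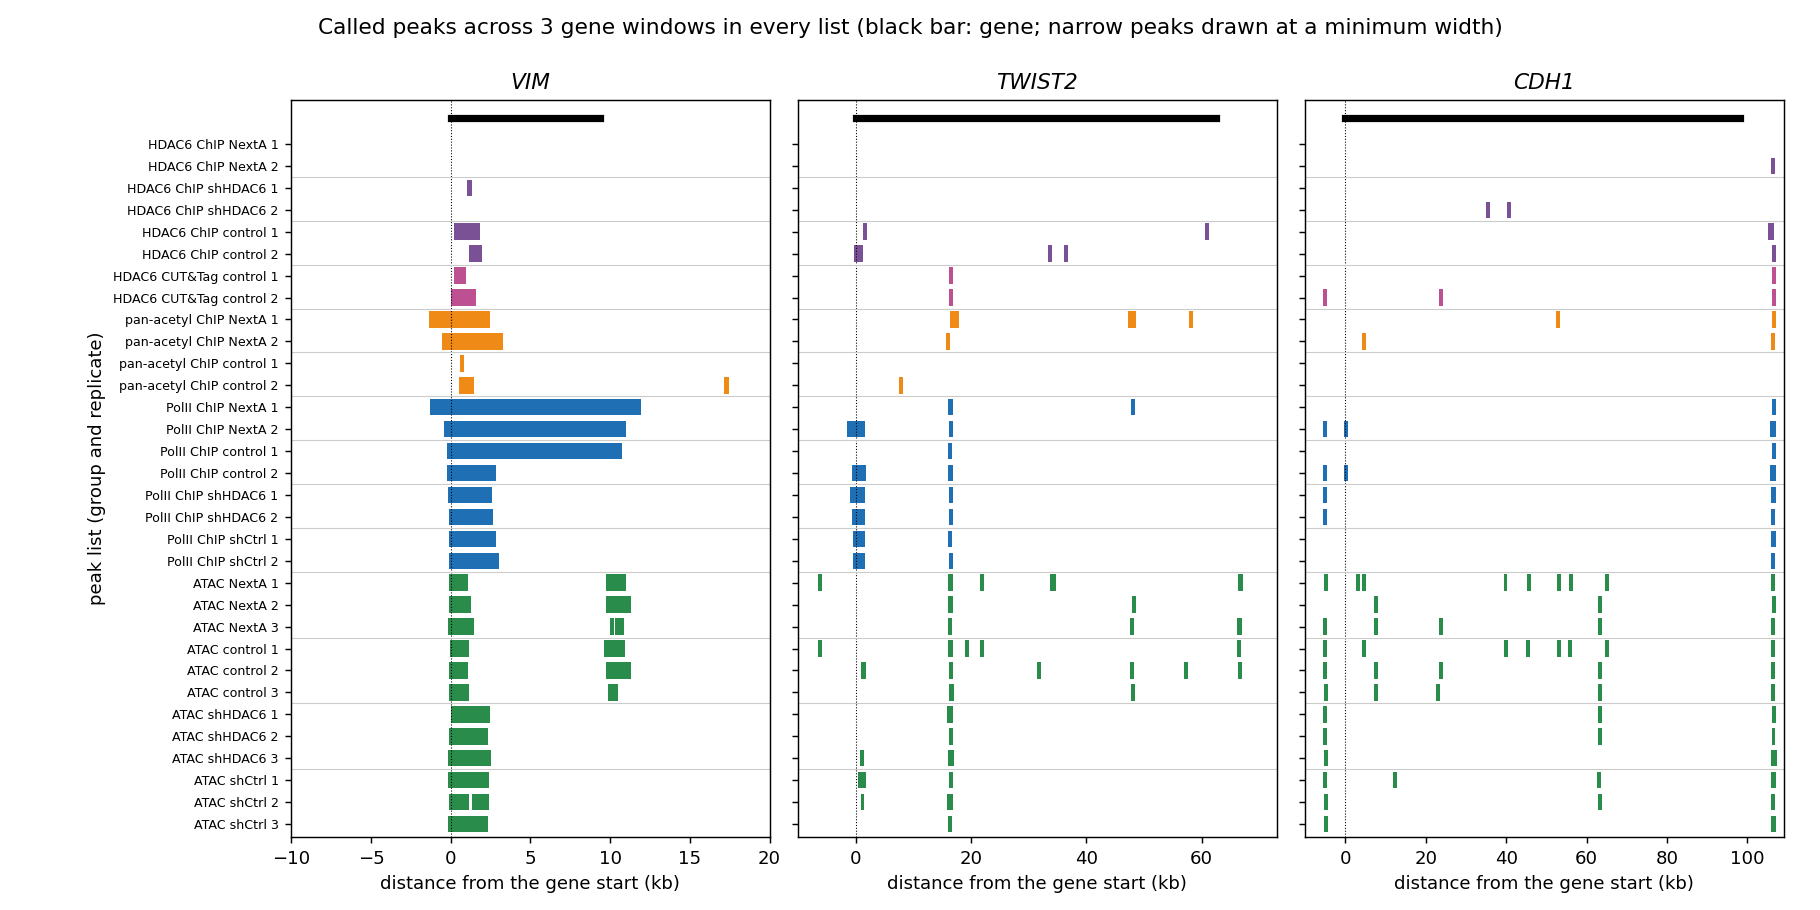
Called peaks in the windows of VIM, TWIST2 and CDH1, with distance from the gene start in kb on the x axis and 1 row per peak list; bars are peaks, coloured by assay, and the black bar is the gene. VIM has PolII bars of 11.005 to 13.2 kb in 3 lists and an ATAC bar beyond the gene end in the 6 NextA and control lists only, TWIST2 a column of bars 16.8 kb into the gene, and CDH1 columns 4.95 kb upstream and 106 kb downstream with bars at the start in 2 PolII lists.

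PolII and ATAC calls at a start did not always go together among the members. Of 8571 genes with PolII at the start in all 8 lists, 75.8% had ATAC in all 12 lists and 3.58% in 3 or fewer. SNAI1 belongs to that 3.58%, whereas VIM and SNAI2 had both marks throughout. Of 1473 genes with PolII in 5 to 7 lists, the group that holds ZEB2, TWIST1, TWIST2 and CDH2, 27.1% had ATAC in 3 or fewer lists, as TWIST2 did. CDH1 lies with 1189 genes that had PolII in 1 to 4 lists, of which 29.4% had no ATAC peak in any list.

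HDAC6 occupancy in control cells was uneven among the members. Both CUT&Tag lists had a start peak at ZEB1, ZEB2, SNAI2, VIM, FN1 and CDH2, 6 of 10, against 37.1% of all genes. The CST ChIP list had a start peak at 7 members, against 53.9% of all genes, and the Novus ChIP list at 4, against 21.9% (SNAI1, TWIST1, TWIST2 and CDH2), at percentiles 2.85 to 8.31. Both ChIP lists shared SNAI1, TWIST1 and CDH2, 3 of 10, against 15.2% of all genes. The Novus control list was called on p, reached down to a −log10 q of 0, and had 26 of its 63833 peaks at 5 or more. The CST and CUT&Tag control lists were called on q and held no peak under a −log10 q of 1, so the lists are not equally strict.

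The first treatment comparison asked whether HDAC6 peaks at these genes changed with the inhibitor. Regions present in both control lists and absent from both NextA lists count as lost, and those with the reverse pattern as gained. Of 25 HDAC6 regions in the member windows 4 were lost, at SNAI1, TWIST1, VIM and CDH2, against 3.66% of all 89954 regions, and 0 were gained. All 4 lie at gene starts. The TWIST1 region had percentiles of 85.6 and 2.85 in the control lists, VIM 85.8 and 0.887, CDH2 73.3 and 3.28, and SNAI1 3.80 and 8.31. All 4 stood at 8.31 or lower in the Novus list. At SNAI1 (80.9) and CDH2 (83.9) the CST list held a second, stronger peak within 1 kb of the start that the Novus peak does not overlap. At the level of the start, SNAI1, TWIST1 and CDH2 were lost, 3 of 10, against 13.8% of all genes. HDAC6-covered length was lower in both NextA lists than in both control lists for 8 of 10 members, against 52.3% of all genes. ZEB1 and FN1 were the exceptions. The two-sided exact permutation p was 0.33 for each of the 8, and 2 against 2 lists cannot give a smaller one. TWIST2 had 0 and 0 kb in NextA lists, against 0.571 and 2.26 kb in control lists. The NextA lists held 3256 and 235 peaks, against 28590 and 63833 in control cells. With equal list lengths 0 regions were lost, and the same held when peaks under a −log10 q of 5 were dropped. Leaving out either control list raised the number to 13.

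With the Novus antibody, 0 members had a start peak in either shHDAC6 list, against 4 in the Novus control list. Of all genes, 20.5% had a start peak in the Novus control list and in neither shHDAC6 list. Covered length at ZEB2 was 0.737 and 0.598 kb in shHDAC6 lists, against 1.38 kb in the Novus control list, and at CDH2 it was 0.442 and 0 kb in shHDAC6 lists, against 0.912 kb. Other members did not follow this order. FN1 had 0.300 and 0.299 kb in shHDAC6 lists, against 0.290 kb, ZEB1 had 1.325 and 0 kb, against 0 kb, and CDH1 had 0 and 1.09 kb, against 0.920 kb. Those lists held 16441 and 12152 peaks in shHDAC6 cells, against 63833 in the control list. With 1 control list of that antibody there is no test.

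The pan-acetyl comparison asked whether H3 acetylation peaks at the members changed with the inhibitor. Within 1 kb none of the 10 starts was called gained or lost, against 20.7% of all genes gained. Within 500 bp the VIM start was called gained. Of 44 regions in the windows 1 was gained, against 3.69% of all regions, and it lies in the CDH1 window at the TANGO6 start (percentiles 63.9 and 2.03 in NextA lists). Covered length was higher in both NextA lists than in both control lists at ZEB2, TWIST2, VIM, FN1 and CDH1, 5 of 10, against 42.9% of all genes, and lower at 0 of 10, against 0.00501% (exact permutation, two-sided p = 0.33 each). VIM had 3.79 and 3.83 kb in NextA lists, against 0.219 and 1.283 kb in control lists. ZEB2 had 0.794 and 4.35 kb in NextA lists, against 0 and 0.644 kb in control lists. The NextA lists held 28473 and 61186 peaks, against 1418 and 41411 in control cells. After division by the covered length of the whole list 3 members were separated, a count for which no share of all genes was computed. Without NextA replicate 1 the number of gained regions was 22, and without NextA replicate 2 it was 10, while without control replicate 1 the number lost was 11. ZEB1, SNAI1, FN1 and SNAI2 had start peaks in NextA replicate 1, at 97.8, 93.7, 58.6 and 47.5, and in none of the other 3 lists. At ZEB1 control replicate 1 held a peak just outside the 1 kb limit, 1.18 kb from the start (80.3).

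PolII at the members was compared next in NextA and control cells. No member region was lost and none gained out of 25, against 0.102% of all regions lost and 1.12% gained. The starts that differed among the 4 lists, TWIST1, TWIST2, CDH2 and CDH1, all had a peak in both replicate 2 lists and in neither replicate 1 list. That pattern was found at 8.42% of all genes, and the reverse pattern at 0.889%. VIM was the only member whose PolII-covered length did not overlap between the groups, 13.2 and 11.4 kb in NextA lists, against 11.005 and 3.08 kb in control lists. The means were 12.3 ± 1.30 kb in NextA and 7.04 ± 5.602 kb in control cells (SD, n = 2 per group), with a two-sided exact permutation p of 0.33. Of all genes 15.4% were higher in this way and 1.2% lower. The VIM call was lost when covered length was divided by that of the whole list.

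**Figure D3:**
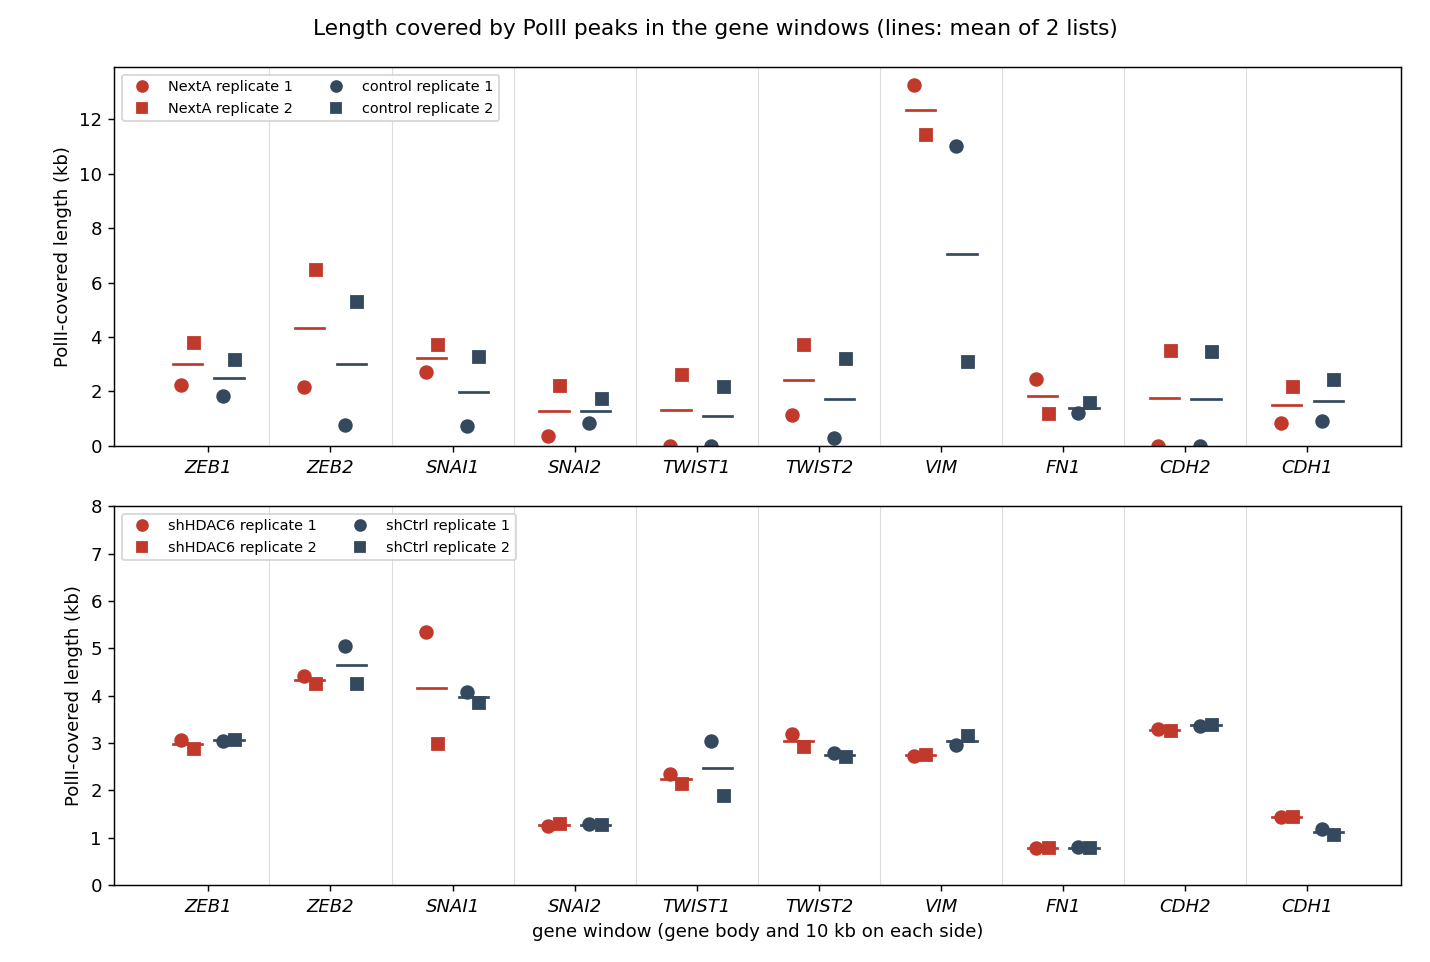
Length covered by PolII peaks in each gene window in kb, for NextA and control lists (top) and shHDAC6 and shCtrl lists (bottom); circles are replicate 1, squares replicate 2, and lines the mean of 2 lists. VIM stands alone at 11.005 to 13.2 kb in 3 lists of the top panel, TWIST1 and CDH2 lie at 0 in replicate 1 of both groups there, and in the bottom panel VIM lies at 2.74 to 3.15 kb in all 4 lists.

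In the knockdown comparison 8 members had a PolII start peak in all 4 lists, and SNAI2 and TWIST2 had the largest mean percentile differences among them. SNAI2 had percentiles of 71.9 and 73.5 in shHDAC6 lists, against 95.6 and 97.4 in shCtrl lists, from folds of 6.15 and 6.59 in shHDAC6 cells, against 8.71 and 10.9 in shCtrl cells. TWIST2 had 39.99 and 41.2 in shHDAC6 lists, against 26.4 and 29.7 in shCtrl lists. The lists held 19519 and 19556 peaks in shHDAC6 cells, against 21570 and 21327 in shCtrl cells. With the strongest 19519 peaks of each list, an alternative chosen after seeing the data, the mean percentile difference (shHDAC6 minus shCtrl) was -23.5 at SNAI2 and 19.6 at TWIST2. Non-overlapping percentiles were common: of 9822 genes with a peak in all 4 whole lists, 41.7% were lower in this way in shHDAC6 lists and 37.0% higher, and 9.95% were lower by at least 20 points. Of the 8 members, 4 were lower (FN1, SNAI2, VIM and SNAI1) and 2 higher (TWIST2 and CDH2). With equal list lengths SNAI2 and VIM were lower and TWIST2 and CDH2 higher. The VIM percentiles differed by under 1 point, 96.5 and 96.3 in shHDAC6 lists, against 97.1 and 97.3 in shCtrl lists.

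**Figure D4:**
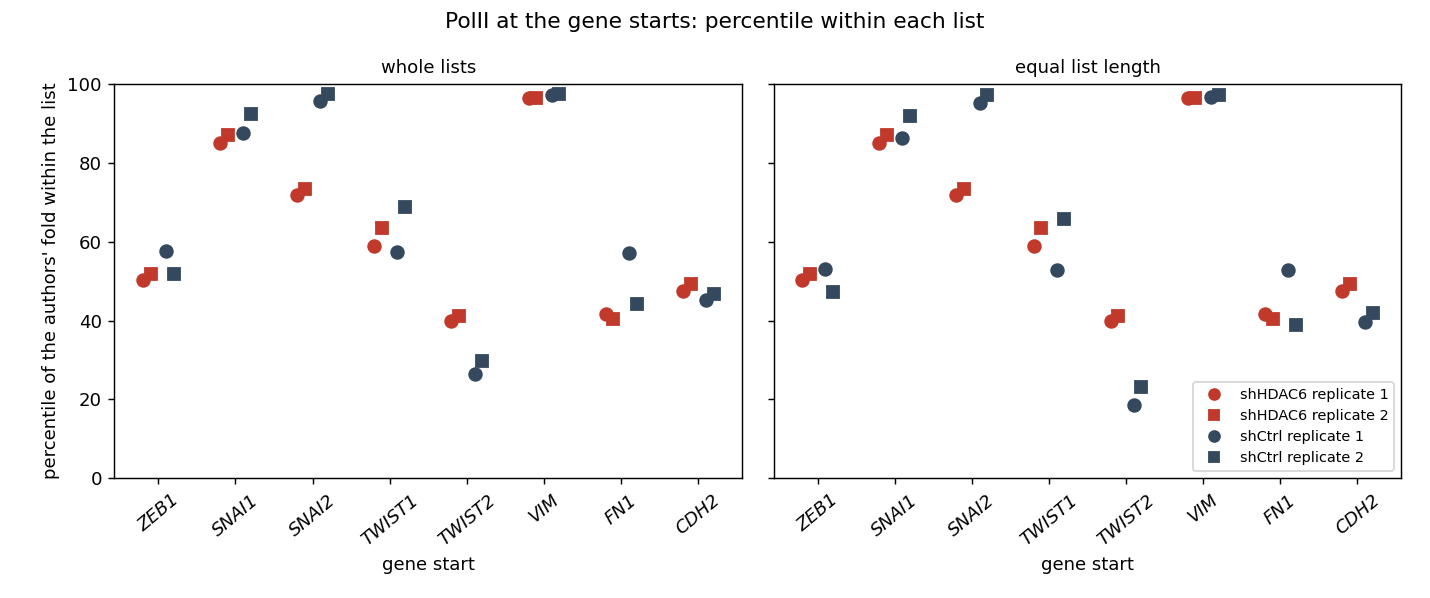
Percentile of the authors' fold at the start of the 8 members with PolII in all 4 hairpin lists, for shHDAC6 and shCtrl lists, in whole lists (left) and in the strongest 19519 peaks of each list (right); circles are replicate 1 and squares replicate 2. SNAI2 lies at 71.9 and 73.5 in shHDAC6 lists, against 95.6 and 97.4 in shCtrl lists, and TWIST2 shows the reverse order.

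Of 19 PolII regions in the windows of the hairpin cells 13 were in all 4 lists, 0 were lost and 1 was gained, against 7.87% of all regions lost and 3.32% gained. The gained region lies 5.07 kb upstream of CDH1 inside CDH3, with percentiles of 9.34 and 20.9 in shHDAC6 lists. PolII-covered length was lower in shHDAC6 lists at VIM (2.74 and 2.74 kb, against 2.95 and 3.15 kb in shCtrl lists) and CDH2 (3.31 and 3.25 kb, against 3.37 and 3.39 kb), 2 of 10, against 27.7% of all genes. It was higher in shHDAC6 lists at TWIST2 (3.19 and 2.92 kb, against 2.79 and 2.71 kb in shCtrl lists) and in the CDH1 window (1.43 and 1.43 kb, against 1.18 and 1.06 kb), 2 of 10, against 19.8% (exact permutation, two-sided p = 0.33 each). Divided by the covered length of the whole list, 6 members were higher in shHDAC6 lists and 0 lower, against 35.5% and 15.8% of all genes. Both lower calls were lost under that scaling: VIM overlapped, and CDH2 was then higher, at 0.117 and 0.118 kb per Mb in shHDAC6 lists, against 0.105 and 0.111 kb per Mb in shCtrl lists. The higher calls at TWIST2 and CDH1 were kept.

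Accessibility at the members did not separate with the inhibitor. Of 83 ATAC regions 7 were in all 6 lists, 0 were lost and 0 gained, against 0.0597% of all regions lost and 0.497% gained. Covered length overlapped between NextA and control lists for all 10 members, where 3.35% of all genes were higher and 2.19% lower without overlap. No member start was lost or gained in ATAC, against 0.0442% and 0.0379% of all genes. In CDH1 it was 3.24, 1.95 and 3.59 kb in NextA lists, against 4.10, 2.62 and 2.88 kb in control lists, a difference in means of -0.272 kb (exact permutation, two-sided p = 0.8, where 3 against 3 lists cannot go below 0.1).

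With the knockdown, 1 of 25 ATAC regions was lost, against 0.957% of all regions, and 0 were gained, against 0.342%. The lost region lies inside ZEB2 at chr2:144427011-144427764, 92.7 kb from its start, with percentiles of 49.1, 13.2 and 13.8 in shCtrl lists and no peak in 3 shHDAC6 lists. The same place was called in 5 of 6 NextA and control lists. Covered length in the whole ZEB2 window was 1.02, 1.78 and 1.72 kb in shHDAC6 lists, against 1.56, 2.86 and 2.19 kb in shCtrl lists, and overlapped (exact permutation, two-sided p = 0.3). No member was separated, where 2.7% of all genes were higher and 6.9% lower, and no member start was lost or gained, against 0.189% and 0.177%. SNAI2 was the only one of 4 members with a start peak in all 6 lists whose percentiles did not overlap. They were 60.7, 48.7 and 59.7 in shHDAC6 lists, against 72.4, 84.3 and 66.0 in shCtrl lists. Of 7571 such genes 5.88% were lower in this way in shHDAC6 lists and 6.34% higher.

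Other genes of the EMT programme were taken from lists set up for this description. PolII stood at the start in both NextA and both control lists for 5 of 12 other EMT transcription factor genes, 13 of 25 other mesenchymal genes, 8 of 21 epithelial junction and identity genes and 3 of 12 genes for epithelial factors that oppose EMT, against 55.5% of all genes. No start of these genes was called lost or gained in PolII with the inhibitor, where 0.0442% and 0.221% of all genes were. With the knockdown, SNAI3, another SNAIL family gene, was gained (mean percentile 30.9 in shHDAC6 lists) and AXL, a receptor tyrosine kinase gene, was lost (11.1 in shCtrl lists), where 0.795% of all genes were gained and 0.524% lost. Of 15 genes of EMT-inducing signals, IL6, a cytokine gene, was lost in the same comparison (22.2 in shCtrl lists). Pan-acetyl starts were gained with the inhibitor at 7 of the 25 other mesenchymal genes, among them LOX, which crosslinks collagen (mean percentile 59.2), COL6A1 (49.4), FSTL1 (48.2) and the integrin gene ITGA5 (46.9), against 20.7% of all genes. They were gained at 0 of the 12 transcription factor genes, at OCLN and ELF3 among the 21 epithelial genes and at KLF4 and ESRP2 among the 12 opposing factors. HDAC6 starts were lost at 5 of the 12 transcription factor genes, against 13.8% of all genes, among them TCF3 (mean percentile 64.3 in control lists), SOX4 (59.2), FOXC1 (12.5) and FOXC2 (11.9). They were also lost at 4 of the 12 opposing epithelial factors (GRHL1, FOXA1, OVOL2 and ESRP2), at 2 of the 25 mesenchymal genes (LOX and MMP2) and at 1 of the 21 epithelial genes (MARVELD2). Genes for corepressors and chromatin partners of EMT factors lost 5 of 15, and those of EMT-inducing signals 5 of 15. The NextA lists held 3256 and 235 peaks, against 28590 and 63833 in control cells, and these counts were not repeated at equal list length.

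Epithelial genes were not uniformly unmarked in these cells. KRT8 and KRT18, which encode simple epithelial keratins, and the desmosome gene DSP had PolII at the start in 8 of 8 lists each. So did the tight junction gene OCLN, JUP and MARVELD2, and no other of the 21 epithelial junction and identity genes, against 54.1% of all genes. CLDN1 and ELF3 had PolII in 7 lists, TJP1 and CDH3 in 6, and KRT19, CLDN4 and CLDN7 in 4. CLDN3, PKP3 and MAL2 had it in 2 lists, and ST14, SPINT1, RAB25 and CRB3 in 0. EPCAM had PolII in 3 of 8 lists, and GRHL2, GRHL3, OVOL1, ESRP1, KLF5 and EHF, factors of the epithelial state, in 0 of 8. The other 6 of the 12 opposing factors were marked, with PolII in 8 of 8 lists at ESRP2, KLF4 and FOXA1, in 7 at GRHL1 and GATA3 and in 6 at OVOL2. Of 9 leukocyte marker genes, 8 had no PolII peak at the start in any list, and the exception was the lysosomal gene CD68. Of 6 fibroblast marker genes, PDPN and PDGFRB had PolII peaks in 6 and 2 lists, and the other 4 in 0. Of 6 neuron marker genes, SYP, TUBB3 and MAP2 had PolII in 8 of 8 lists, NEFL in 6, SNAP25 in 4 and RBFOX3 in 0. A gene start is the outermost annotated one, so use of another start is not counted.

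The miR-200 genes lie in a pair of clusters, and RefSeq gives their mature sequences below with the seed, bases 2 to 8, in capitals. They are shown because they target ZEB1 and ZEB2 and group by seed across the clusters. MIR200B, MIR200A and MIR429 lie on chromosome 1 and MIR200C and MIR141 on chromosome 12. The seed AAUACUG is shared by miR-200b, miR-200c and miR-429, and AACACUG by miR-200a and miR-141.
miR-200b-3p: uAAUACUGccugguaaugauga
miR-200c-3p: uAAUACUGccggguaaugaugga
miR-429: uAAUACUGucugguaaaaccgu
miR-200a-3p: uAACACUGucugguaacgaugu
miR-141-3p: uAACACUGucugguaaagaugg

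The chromosome 1 cluster had no PolII and no ATAC peak within 1 kb of any of its 3 hairpins in any list. Within 10 kb, PolII was called in 6 of 8 lists at MIR200A and at MIR200B and in 0 at MIR429. ATAC was called within 10 kb of these hairpins in 3, 5 and 2 of 12 lists. The start of the host transcript MIR200BHG lies 4.23 kb from MIR200B, and that of TTLL10 lies 4.79 kb from MIR429. On chromosome 12, PolII was called within 1 kb of MIR200C and of MIR141 in 7 of 8 lists each, and ATAC in 1 and 9 of 12 lists. The starts of PHB2 and EMG1 lie 6.56 to 7.15 kb from these hairpins, and the start of the host transcript MIR200CHG lies 0.454 kb from MIR200C.

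The member windows held 134 merged regions over all 32 lists, and 71 of them were called in 1 list only. Single-list regions made up 80% of the member regions in HDAC6 ChIP, 93.2% in pan-acetyl, 20% in PolII and 37.9% in ATAC, beside 94.2%, 91.3%, 46.3% and 32.6% over the genome. By mean absolute difference of the start percentile over 32 lists, with no peak counted as 0, the gene most like VIM was PIGP, level with TTC3 (13.3 points, where the median over all genes was 33.8). The gene most like SNAI1 was ADM (4.56, median 28.4), most like SNAI2 ZNF438 (7.96, median 30.6), most like TWIST1 GGACT (7.77, median 27.2), and most like TWIST2 CYP4F22 (3.24, median 25.5). The nearest to ZEB1 was BMPR2 (11.6, median 31.4), to ZEB2 TNFAIP2 (10.2, median 27.7), to FN1 SEPTIN11 (11.5, median 31.4) and to CDH2 MPPED2 (7.86, median 31.1). The 32 lists share their lengths across genes, so these distances are descriptions only.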

How the data were processed

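Peak lists of 32 of the 41 samples were used, and 9 samples were not analysed here. Per the submitters' processing notes the build was GRCh38 and the tools included MACS2 2.2.7.1 and Bowtie2 2.4.4, with no role or parameters given. The lists carry no header. They hold, as deposited by the authors, a linear fold (a ratio over background) for every peak. Beside it stand the −log10 p-value and −log10 q-value that the authors deposited. The deposited score is 10 times 1 of these, as a whole number. Some lists were called on q with complete peak numbering, and others on p with gaps in it.

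Intervals listed more than once were counted once, chromosomes 1 to 22 and X kept, and overlaps of at least 1 bp counted as presence. Gene positions are RefSeq GRCh38.p14, and strand came from its promoter table for 15813 genes and from textbook knowledge for 39, including SNAI1, SNAI2, TWIST1 and CDH1. Calls ran over all 19974 gene windows, 15852 starts or all regions. Named genes were all 10 members, up to 4 lost or gained genes per list, and the nearest genes by start percentile for members with a start peak in at least 4 lists. The members, lists and rules were chosen with earlier results of these data known.

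Nothing in the labels ties replicates to separate cultures, so the exact permutation p-values describe the spread among these samples alone, and that spread may be technical. Deviations of same-numbered NextA and control ATAC lists correlated over gene windows (0.611, 0.259 and 0.271). NextA replicate 2 correlated slightly better with another number (0.285). Replicate 1 of both groups was called on q and replicates 2 and 3 on p, so these correlations do not by themselves establish pairs. Same-numbered lists were treated as pairs in the replicate block only, and the exact permutation p-values are unpaired. The call rules were tested on simulated lists. Python 3.11.15, pandas 2.3.3, scipy 1.17.1 and matplotlib 3.10.9 were used.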

Additional observations from a re-analysis of the deposited data

Results flagged for a closer look

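The PolII-covered length at VIM moved in opposite directions with the inhibitor and with the knockdown, which is why it is listed here. It was 5.29 kb longer on average in NextA than in control lists, with both NextA lists (13.2 and 11.4 kb) above both control lists (11.005 and 3.08 kb). The shHDAC6 minus shCtrl difference was -0.31 kb, with both shHDAC6 lists (2.74 and 2.74 kb) below both shCtrl lists (2.95 and 3.15 kb). The difference between these contrasts was not tested. Both orders hold for whole lists only. Divided by the covered length of the list, VIM overlapped in each contrast, with 0.277 and 0.305 kb per Mb in NextA lists, against 0.422 and 0.0868 kb per Mb in control lists, and 0.0967 and 0.0992 kb per Mb in shHDAC6 lists, against 0.0922 and 0.103 kb per Mb in shCtrl lists.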

How the results depend on the processing

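When peaks under a −log10 q of 5 were dropped, the HDAC6 counts were 0 regions lost and 0 members separated, the pan-acetyl counts 0 gained and 0 separated, the PolII knockdown count 0 gained and the ATAC knockdown count 0 lost. With equal list lengths, HDAC6 lost 0, pan-acetyl gained 0 and ATAC knockdown lost 0. With 5 kb flanks pan-acetyl gained 0. Divided by list total, 3 members were separated for pan-acetyl and 0 for PolII with NextA, and the PolII knockdown had 6 higher and 0 lower in place of 2 and 2. Among these scaled counts, a share of all genes was computed for the PolII knockdown only. Start windows of 3 kb gave 5 HDAC6 losses and of 500 bp gave 1 pan-acetyl gain, at VIM. An overlap of 200 bp changed none of the 12 region counts. Read depth is unknown, so its limit on these values could not be given.

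Leaving out each list in turn gave 4 to 13 HDAC6 regions lost, 0 to 1 gained and 8 to 10 members separated. For pan-acetyl the ranges were 0 to 11 lost, 1 to 22 gained and 5 to 8 separated, and for PolII with NextA 0 to 5 gained and 2 to 9 separated. For the PolII knockdown they were 0 to 1 lost, 1 to 3 gained and 5 to 8 separated, for ATAC with NextA 0 to 1 lost, 0 to 1 gained and 0 to 2 separated, and for the ATAC knockdown 1 to 2 lost, 0 to 1 gained and 0 to 3 separated. With any single list left out, 0 PolII regions were lost with NextA. With a list left out the call rule has fewer lists to satisfy, and these counts have no share of all genes beside them. The 9 separated PolII members arose without NextA replicate 1, and the 5 gained PolII regions without NextA replicate 2.

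The replicate block, which asks every same-numbered pair to move the same way, changed no ATAC call with NextA. In HDAC6 ChIP, same-numbered NextA and control lists also share an antibody. In HDAC6 ChIP, pan-acetyl and PolII with NextA, both replicate 1 lists were called on q and both replicate 2 lists on p. Between shHDAC6 and shCtrl, same-numbered lists share only a number. The block gave 6 separated members for PolII with NextA (5 higher, 1 lower), where same-numbered lists correlated at 0.711 but only 2 pairs exist, and 3 for the ATAC knockdown. It was counted over the members only, so no share of all genes can be set beside these counts. Within each number the NextA PolII list also covered more, 47.9 against 26.1 Mb in replicate 1 and 37.4 against 35.5 Mb in replicate 2. In the hairpin ATAC lists no shHDAC6 list correlated best with its own number.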
